A study of Mus musculus with 8 samples.

Results

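The mRNAs described here encode the machinery that drives cells through the division cycle: cyclins, cyclin-dependent kinases (CDKs), CDK inhibitors, E2F transcription factors, the retinoblastoma (pocket) proteins and the Cdc25 phosphatases. They were taken by name from the gene names on the array, with the cyclin, Cdk, Cdkn and E2f name stems, the 3 Cdc25 genes and a few single genes (Ccnc, Ccnf, Ccnh, Rb1, Rbl1, Rbl2), which gave 58 of 27949 names. Where several probes carry a name, the brightest one, by mean signal on the 8 arrays, is reported; 32 of the 58 genes had more than 1 probe. The name stems also take in genes named after a kinase that are not kinases (Cdk2ap1, Cdk2ap2, Cdk5r1, Cdk5r2, Cdk5rap1, Cdk5rap2 and Cdk5rap3). Cdk1 stands on this array under its old name, Cdc2a, and is therefore given with the wider pathway and not as a member.

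Cyclins are regulatory subunits that switch on CDKs at set points of the cycle. D cyclins with Cdk4 and Cdk6, then E cyclins with Cdk2, phosphorylate the pocket proteins, which releases E2F factors to transcribe the genes for DNA replication, while A and B cyclins act later, in S phase and mitosis. Other members of both families, among them cyclins C, H, K, L and T and, of the kinases, Cdk7, Cdk8 and Cdk9, act on RNA polymerase II instead. Mouse embryonic stem (ES) cells are known for a short G1 phase and for high activity of Cdk2 through much of the cycle.

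All RNA came from Dazl-GFP, 1 re-derived transgenic line of mouse ES cells. It was kept over irradiated fibroblasts as feeders, with 15% serum, leukemia inhibitory factor and 2 kinase inhibitors together called 2i (1 µM PD0325901 against MEK and 3 µM CHIR99021 against GSK3β). The 3 groups were the input, which is RNA before immunoprecipitation (IP) with no antibody, on 3 arrays, the RNA recovered by native IP with an antibody against GFP, on 3 arrays, and that recovered with an antibody against the poly(A) binding protein PABP1, on 2 arrays. The study asked which RNAs are bound by DAZL, a germ-cell protein that binds mRNA. The sources used here do not say whether GFP is joined to DAZL in this line, a control-antibody IP was not analysed here, and arrays of a group are not said to come from separate cultures, so that p-values measure only the spread between these arrays, which may be technical.

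Levels below are log2 signals relative to the array's 75th percentile of all probe spots, so that 0 is the level of that percentile spot, and a difference between groups compares an mRNA's share of 1 RNA sample with its share of another. A level is never compared between genes, since probes differ in brightness. Errors are SD for levels and limma's standard error (SE) for differences, and adjusted p-values are limma's over all 14728 tested genes, with a threshold of 0.05. The scanner software marked 41.5% to 52.6% of an array's spots as well above background; the number of arrays limits the precision. Across genes, which are not independent, arrays correlated at 0.975 to 0.993 within groups and 0.855 to 0.932 between groups. Dazl itself was higher in the GFP IP than in the input by 3.81 ± 0.21 (14.1-fold; adjusted p = 2.15e-05) and lower in the PABP1 IP by −1.70 ± 0.23 (adjusted p = 0.000628). Pabpc1, which encodes PABP1, differed from the input by −0.86 ± 0.61 in the GFP IP and by 0.22 ± 0.68 in the PABP1 IP, and neither passed the test. All 9 ES cell markers on the array were well above background on all arrays, with a summed level (linear scale, in multiples of the 75th percentile) of 475 to 519 in the inputs, 549 to 551 in the PABP1 IPs and 570 to 630 in the GFP IPs. Of 18 feeder fibroblast markers, 15 were well above background on all arrays; their sum was 329 to 460 in the inputs, 476 to 491 in the PABP1 IPs and 135 to 196 in the GFP IPs. The median difference of the 18 from the input was −1.14 in the GFP IP (all tested genes −0.51). There 15 of the 18 were lower than in the input and 0 higher, beside 43.3% and 21.4% of all tested genes. This sets RNA recovered by an IP against RNA before IP, so it does not measure the number of feeder cells. Its cause was not tested. The arrays lay on 2 slides, each with arrays of all 3 groups.

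Of the 58 members, 54 could be tested, because a whole group of arrays (or more) showed them well above background, and 47 of these were so on all 8 arrays. Ccnb3, the pseudogene Ccnb2-ps and E2f4 were well above background on 0 arrays, and Rbl2 on 2 inputs, 2 GFP IPs and 0 PABP1 IPs. Cdk2 passed this filter only through the IP arrays, Ccne2 only through the GFP IPs and Ccna1 only through the PABP1 IPs. The filter favours a higher signal on those arrays, so such differences of these genes are a description. The counts below include them.

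In the GFP IP, 18 members were higher and 17 lower than in the input. The share called was 64.8%, the same as over all tested genes (64.8%), but the split was not: 21.4% of all tested genes were higher and 43.3% lower, against 33.3% and 31.5% of the members. The median difference of the members was 0.09, beside −0.51 over all tested genes. In the PABP1 IP, 21 members were higher and 19 lower than in the input, 74.1% called beside 59.6% over all genes (34.3% higher and 25.4% lower); the medians were 0.31 and 0.24. Between the IPs, 20 members were higher with GFP and 21 higher with PABP1, 75.9% called beside 71.4% over all genes (23.9% and 47.4%); the medians were 0.08 and −0.67. The comparisons share arrays: both IPs were set against the same inputs, and the GFP IP arrays enter both the first and the last comparison.

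These directions are relative to the 75th percentile. Scaling each array on its median instead moved the median of all tested genes in the GFP IP over input from −0.51 to 0.02, and then 26 members were higher and 7 lower, so that 78.8% of the called members were higher, against 51.4% with the percentile. Over all tested genes the share of called genes that were higher moved likewise, from 33.1% to 59%. Between the IPs that scaling gave 23 higher and 16 lower with GFP (59.0% of the called members higher, against 48.8%; over all genes 47.1%, against 33.5%). A different background correction (normexp) with the same percentile scaling left 5 of the 35 calls in GFP over input, 12 of the 40 in PABP1 over input and 21 of the 41 between the IPs; over all genes it left 10.6%, 15.6% and 28.7% called. The calls that held in every alternative in which the gene could be tested (up to 24) were, for GFP over input, Ccnd1 and Ccnc (higher) and Cdk10, Cdk5rap3 and Cdkn3 (lower). For PABP1 over input they were 12, among them Cdk4, Ccnd3, Ccng1, Cdk7 and Cdkn2b (higher) and Cdk6 and Cdk5rap2 (lower). Between the IPs they were 18, among them Ccnd1, Ccnc, Ccnt2, Cdk6, Cdk9, E2f7, Rb1 and Rbl1 (higher with GFP) and Ccnd3, Ccng1, Cdk4, Cdkn1a, Cdkn2b and Cdkn3 (higher with PABP1). Holding in every alternative does not mean that all probes of a gene had 1 sign. Another probe had the opposite sign for Cdk6 with PABP1 over input (1.05) and between the IPs (−0.56). Between the IPs this was also so for Ccng1 (0.61) and Ccnc (−0.80).

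**Figure D1:**
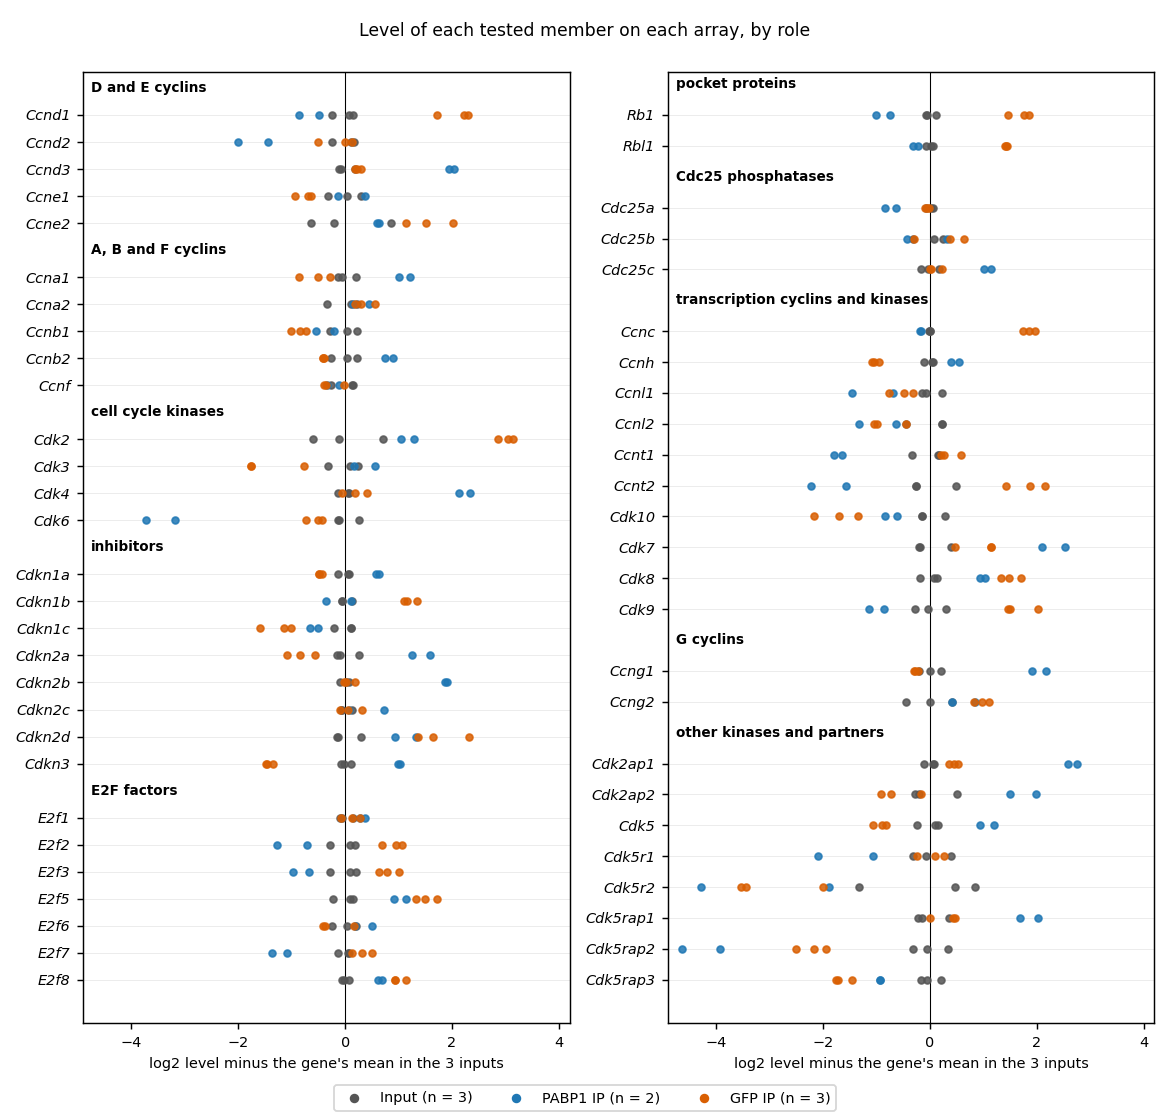
Log2 level of each of the 54 tested members on each array (x axis), minus its mean in the 3 inputs, grouped by role (y axis); points are arrays, grey for input (n = 3), blue for PABP1 IP (n = 2) and orange for GFP IP (n = 3). Members of 1 role often lie on opposite sides of 0, as the D cyclins Ccnd1 and Ccnd3 do, and the 3 inputs of Cdk5r2 are spread from 1.38 to −0.78 before the mean is taken off.

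The D and E cyclins start the cycle, and their mRNAs did not behave alike. Ccnd1, whose protein activates Cdk4 and Cdk6 in response to growth signals, read 1.77, 1.45 and 1.84 in the inputs, 0.82 and 1.21 in the PABP1 IPs and 3.98, 3.41 and 3.91 in the GFP IPs. All GFP IP arrays lay above all inputs, and both PABP1 IP arrays lay below them. The GFP IP exceeded the input by 2.08 ± 0.21 (4.22-fold; adjusted p = 0.000148) and the PABP1 IP by 2.75 ± 0.23 (6.75-fold; adjusted p = 4.54e-05). The PABP1 IP was −0.68 ± 0.23 relative to the input (adjusted p = 0.0375), a call that held in 14 of the 24 alternatives. It was lost within slide 2 (adjusted p = 0.0656) and without input 1, input 3, PABP1 IP 1 or GFP IP 3 (adjusted p = 0.0885, 0.0895, 0.209 and 0.0542).

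Ccnd2 read 1.82, 2.24 and 2.17 in the inputs and 1.57, 2.07 and 2.20 in the GFP IPs, which overlapped, but 0.07 and 0.63 in the PABP1 IPs. It was 3.31-fold lower in the PABP1 IP than in the input (difference −1.73 ± 0.26, adjusted p = 0.00103), and its 2 other probes gave −1.40 and −0.72. Ccnd3 ran the other way. It read 4.23, 3.92 and 3.96 in the inputs, 6.08 and 5.99 in the PABP1 IPs and 4.34, 4.23 and 4.26 in the GFP IPs. The PABP1 IP exceeded the input 4-fold (2.00 ± 0.14, adjusted p = 3.64e-05), while the GFP IP differed from the input by 0.24 ± 0.12 and did not pass (adjusted p = 0.122), but did at 0.77 with median scaling (adjusted p = 0.00934) and 0.50 with quantile normalization (adjusted p = 0.00454).

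Ccne1, which encodes cyclin E1, the partner of Cdk2 at the start of S phase, read 5.91, 5.66 and 5.30 in the inputs, 5.99 and 5.49 in the PABP1 IPs and 4.99, 4.92 and 4.68 in the GFP IPs. The GFP IP arrays were the lowest, by −0.76 ± 0.21 against the input (adjusted p = 0.0149), and a second probe gave −1.30. This call was lost with median scaling, within slide 2 (adjusted p = 0.142) and without GFP IP 3 (adjusted p = 0.0546). Ccne2, for cyclin E2, was well above background on 0 inputs, 1 PABP1 IP and all 3 GFP IPs. Its measured means were −4.01 in the input and −2.46 in the GFP IP, so only a bound is given, as a description, at least 1.74-fold higher with GFP. Such bounds set the mean of the bright group against a value for each dim array. That value is the larger of the gene's own signal and the lowest signal that counted as well above background there.

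**Figure D2:**
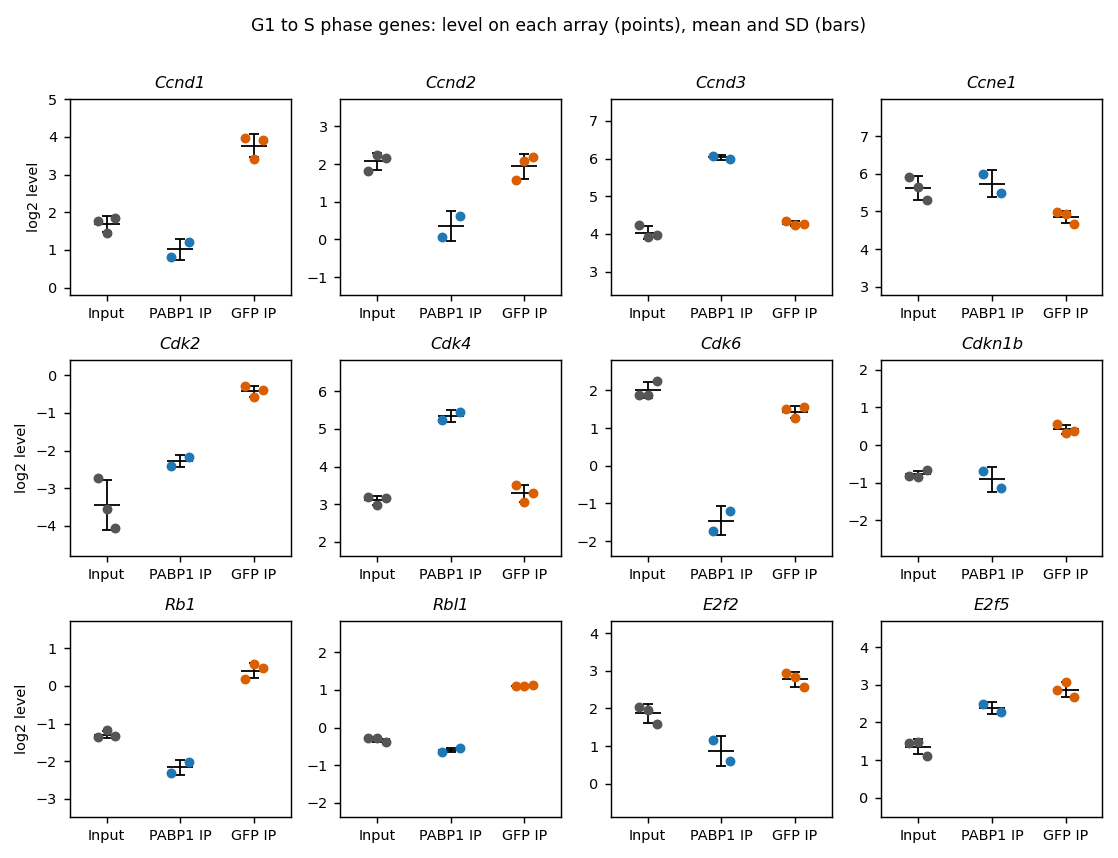
Log2 level of 12 genes of the G1 to S phase control on each array (points), with the group mean and SD (bars); each panel covers the same number of log2 units on its y axis. Ccnd1, Rb1, Rbl1 and Cdkn1b are highest in the 3 GFP IPs, Ccnd3 and Cdk4 in the 2 PABP1 IPs, and Cdk6 and Ccnd2 are lowest in the PABP1 IPs.

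The kinases of the cell cycle, the partners of these cyclins, divided in the same comparison. Cdk4 read 3.19, 2.97 and 3.17 in the inputs, 5.24 and 5.45 in the PABP1 IPs and 3.51, 3.06 and 3.30 in the GFP IPs. It was 4.71-fold higher in the PABP1 IP than in the input (2.23 ± 0.17, adjusted p = 5.12e-05), and 4.15-fold lower in the GFP IP than in the PABP1 IP (−2.05 ± 0.17, adjusted p = 4.33e-05). GFP IP and input arrays overlapped.

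Cdk6, the other partner of the D cyclins, read 1.89, 1.87 and 2.25 in the inputs, −1.72 and −1.19 in the PABP1 IPs and 1.5, 1.26 and 1.56 in the GFP IPs. On this probe it was 11.0-fold lower in the PABP1 IP than in the input (−3.45 ± 0.21, adjusted p = 2.62e-05) and 7.43-fold higher in the GFP IP than in the PABP1 IP (2.89 ± 0.21, adjusted p = 2.56e-05). A second Cdk6 probe, also well above background on all arrays, gave 1.05 for PABP1 over input and −0.56 between the IPs, the opposite signs. The array's annotation pairs these probes with different transcript records, so the direction for the gene as a whole is not settled by these data. The reported probe was also −0.56 ± 0.19 lower with GFP than in the input (adjusted p = 0.0332), a call that held in 11 of 24 alternatives and turned to 0.10 for the mean of the gene's probes. Leaving out any 1 input or GFP IP array ended it (adjusted p from 0.0523 to 0.0923).

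Cdk2, the kinase of cyclins E and A, read −2.73, −3.55 and −4.05 in the inputs, none well above background, −2.40 and −2.16 in the PABP1 IPs and −0.30, −0.58 and −0.39 in the GFP IPs. Since Cdk2 passed the filter only through IP arrays, its differences from the input are given as a description. It was at least 7.46-fold higher in the GFP IP than in the input (measured means −0.42 and −3.44) and at least 2.06-fold higher in the PABP1 IP. The latter call was lost within slide 1 (adjusted p = 0.177) and without input 2, PABP1 IP 1 or PABP1 IP 2 (adjusted p = 0.0633, 0.0631 and 0.109), and held in 13 of 23 alternatives. Between the IPs, both measured, the GFP IP was higher by 1.86 ± 0.35 (3.62-fold; adjusted p = 0.00238). Another Cdk2 probe was well above background on 0 arrays. Cdk3 was −1.43 ± 0.31 relative to the input in the GFP IP (adjusted p = 0.00512) and −1.79 ± 0.34 relative to the PABP1 IP (adjusted p = 0.00254), with 1 of 3 GFP IP arrays well above background. The first was lost with median scaling (−0.90, adjusted p = 0.0736).

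The pocket proteins, which hold E2F factors in check until CDKs phosphorylate them, had 2 tested members, and both were higher with GFP. Rb1 read −1.36, −1.17 and −1.34 in the inputs, −2.30 and −2.03 in the PABP1 IPs and 0.18, 0.57 and 0.47 in the GFP IPs. The groups did not overlap: the GFP IP was 3.23-fold above the input (1.69 ± 0.15, adjusted p = 9.19e-05) and 5.92-fold above the PABP1 IP (2.57 ± 0.17, adjusted p = 1.69e-05). For the mean of the gene's probes, dim ones included, GFP over input was 0.45 and did not pass (adjusted p = 0.0843). Rb1 in the PABP1 IP was −0.87 ± 0.17 relative to the input (adjusted p = 0.00309), but this did not pass within slide 2 (adjusted p = 0.0827). Rbl1, which encodes p107, varied little within groups, with inputs at −0.27, −0.29 and −0.39, PABP1 IPs at −0.64 and −0.55 and GFP IPs at 1.09, 1.10 and 1.12. It was 2.68-fold above the input with GFP (1.42 ± 0.10, adjusted p = 4.37e-05); the PABP1 IP differed from the input by −0.27 ± 0.11 and did not pass (adjusted p = 0.0703; with the slide as a block, 0.0304). Rbl2, for p130, was not tested.

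Of the 7 tested E2F factors, 4 were higher with GFP than in the input and 0 lower, and 5 were higher with GFP than with PABP1 and 0 lower, beside 21.4% and 23.9% of all tested genes higher in these comparisons. The counts higher against input were 4 or 5 under each other scaling of the arrays, and 0 under normexp with percentile scaling. For the mean of a gene's probes, E2f3 and E2f8 lost the call against input, and E2f3, E2f5 and E2f8 lost that between the IPs. The 5 higher between the IPs became 3 within each slide and without input 2, PABP1 IP 1, PABP1 IP 2 or GFP IP 2, and 1 under normexp with percentile scaling; with the slide as a block, 2 were lower. E2f5, a factor that mostly works with p130 and p107 as a repressor, read 1.44, 1.49 and 1.12 in the inputs, 2.49 and 2.27 in the PABP1 IPs and 2.85, 3.07 and 2.68 in the GFP IPs. Both IPs lay above the inputs, by 1.52 ± 0.16 with GFP (2.86-fold; adjusted p = 0.000195) and 1.03 ± 0.18 with PABP1 (2.04-fold; adjusted p = 0.00199). The difference between the IPs, 0.49 ± 0.18, passed narrowly (adjusted p = 0.0416) and held in 11 of 24 alternatives, with neither slide alone among them. Of the 8 arrays, only leaving out input 3 or GFP IP 3 kept it; without any other the adjusted p was 0.0561 to 0.191.

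E2f2 and E2f3, activators of S phase genes, were higher with GFP and lower with PABP1 than in the input. E2f2 read 2.05, 1.96 and 1.59 in the inputs, 1.16 and 0.60 in the PABP1 IPs and 2.93, 2.83 and 2.56 in the GFP IPs, without overlap. It differed by 0.90 ± 0.20 with GFP (1.87-fold; adjusted p = 0.0062), by −0.99 ± 0.23 with PABP1 (adjusted p = 0.0074) and by 1.89 ± 0.23 between the IPs (3.71-fold; adjusted p = 0.000245). E2f3 gave 0.81 ± 0.18, −0.82 ± 0.20 and 1.63 ± 0.20 in the same order (adjusted p = 0.00583, 0.00961 and 0.000274). A second E2f3 probe on all arrays gave 0.23, 1.14 and −0.91, so that the sign with PABP1 and between the IPs depended on the probe. Without PABP1 IP 2 the differences with PABP1 did not pass for E2f2 (adjusted p = 0.0547) or E2f3 (adjusted p = 0.0685), and for E2f3 not within slide 2 either (adjusted p = 0.0639).

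E2f8 and E2f7 encode atypical E2Fs that repress transcription late in S phase. E2f8 was 2.01-fold above the input with GFP (1.01 ± 0.11, adjusted p = 0.000228) and 0.65 ± 0.12 above it with PABP1 (adjusted p = 0.00304; within slide 2, 0.0578). Between the IPs it differed by 0.36 ± 0.12 (adjusted p = 0.0342), a call that held in 12 of 24 alternatives and was lost within both slides (adjusted p = 0.115 and 0.174). Leaving out input 2, either PABP1 IP array, or array 2 or 3 of the GFP IP also ended it (adjusted p from 0.0611 to 0.137). For the mean of the gene's probes, the other of which was well above background on 0 arrays, E2f8 passed in no comparison (adjusted p from 0.555 to 0.93). E2f7 was 2.35-fold lower with PABP1 than in the input (−1.23 ± 0.17, adjusted p = 0.000614) and 2.93-fold higher with GFP than with PABP1 (1.55 ± 0.17, adjusted p = 0.000144), with levels of −0.96 and −0.68 in the PABP1 IPs and 0.92, 0.54 and 0.73 in the GFP IPs. E2f1 passed in no comparison without a slide term, with levels of 2.24 to 2.48 in the inputs, 2.6 and 2.70 in the PABP1 IPs and 2.26 to 2.61 in the GFP IPs. A second E2f1 probe stood 1.46 above the input with GFP. E2f6 also passed in none. With the slide as a block both passed for PABP1 over input (E2f1 0.29, adjusted p = 0.0315; E2f6 0.42, adjusted p = 0.00949) and, lower with GFP, between the IPs (−0.25, adjusted p = 0.0477; −0.49, adjusted p = 0.00402).

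More CDK inhibitors were higher than lower with PABP1. Of 8 tested, 5 were higher and 1 lower with PABP1 than in the input (34.3% and 25.4% of all tested genes), and 5 were higher and 1 lower with PABP1 than with GFP (47.4% and 23.9%). With GFP against the input, 2 were higher and 4 lower (25% and 50%), near the 21.4% and 43.3% of all tested genes. With median scaling the counts became 4 higher and 2 lower. The 5 higher with PABP1 than in the input became 3 with quantile normalization and within slide 2, and 2 under normexp with percentile scaling. The feeder fibroblast markers moved the same way between the IPs, where 16 of 18 were lower with GFP than with PABP1 and 1 higher. Their median was −1.69, beside −0.67 over all tested genes. The markers' summed levels were 476 to 491 in the PABP1 IPs and 135 to 196 in the GFP IPs. Their part in the inhibitors' values was not tested. Cdkn3, a phosphatase that acts on CDKs, read 1.79, 1.60 and 1.66 in the inputs, 2.70 and 2.66 in the PABP1 IPs and 0.33, 0.20 and 0.21 in the GFP IPs. It was 2.00-fold above the input with PABP1 (1.00 ± 0.12, adjusted p = 0.00036), 2.70-fold below it with GFP (−1.44 ± 0.11, adjusted p = 5.49e-05) and 5.41-fold lower with GFP than with PABP1 (−2.44 ± 0.12, adjusted p = 9.48e-06). A second Cdkn3 probe gave 1.59, −0.91 and −2.5.

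The INK4 inhibitors bind Cdk4 and Cdk6. Cdkn2a read −1.49, −1.14 and −1.54 in the inputs, 0.20 and −0.14 in the PABP1 IPs and −2.23, −1.96 and −2.47 in the GFP IPs. Its groups were apart, at 2.68-fold above the input with PABP1 (1.42 ± 0.21, adjusted p = 0.000922) and −0.82 ± 0.19 with GFP (adjusted p = 0.00682), the latter not past the threshold within slide 1 (adjusted p = 0.0765) or with median scaling (adjusted p = 0.177). Cdkn2b read 0.94, 1.05 and 1.11 in the inputs, 2.94 and 2.90 in the PABP1 IPs and 1.01, 1.22 and 1.05 in the GFP IPs. It was 3.70-fold above the input with PABP1 (1.89 ± 0.12, adjusted p = 3.24e-05), while GFP IP and input arrays overlapped. Cdkn2d differed from both: it was higher than the input with GFP by 1.77 ± 0.27 (3.40-fold; adjusted p = 0.00106) and with PABP1 by 1.12 ± 0.30 (adjusted p = 0.0148), and the IPs differed by 0.64 ± 0.30, which did not pass (adjusted p = 0.0911) but did with the slide as a block (adjusted p = 0.0351) and with quantile normalization (1.22, adjusted p = 0.0105). The Cdkn2d call with PABP1 was lost with quantile normalization (adjusted p = 0.0511), within slide 2 (adjusted p = 0.0903) and without PABP1 IP 2 (adjusted p = 0.0906). Cdkn2c passed in no comparison, though with median scaling it did with GFP over input (0.62, adjusted p = 0.0353).

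Cdkn1b, which encodes p27, was the inhibitor higher with GFP than with PABP1. It read −0.83, −0.84 and −0.66 in the inputs, −0.68 and −1.14 in the PABP1 IPs and 0.56, 0.32 and 0.37 in the GFP IPs. The GFP IP was 2.29-fold above the input (1.19 ± 0.15, adjusted p = 0.000478) and 2.51-fold above the PABP1 IP (1.33 ± 0.17, adjusted p = 0.000359); input and PABP1 IP arrays overlapped. Cdkn1a, for p21, and Cdkn1c, for p57, were lower with GFP than in the input, by −0.47 ± 0.11 (adjusted p = 0.00657) and −1.26 ± 0.18 (adjusted p = 0.000793), and the sign for Cdkn1a turned to 0.06 with median scaling; within the slides it gave −0.55 and −0.34 (adjusted p = 0.0541 and 0.18). Cdkn1a was 0.60 ± 0.12 above the input with PABP1 (adjusted p = 0.0039) and 0.56 and 0.70 within the slides (adjusted p = 0.0503 and 0.0526), and 0.26 with quantile normalization (adjusted p = 0.0584). Of the feeder fibroblast markers, 15 of 18 were lower with GFP too, beside 43.3% of all tested genes. The markers' summed level was 329 to 460 in the inputs and 135 to 196 in the GFP IPs. The part of feeder RNA in this or any other member lower with GFP was not tested.

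**Figure D3:**
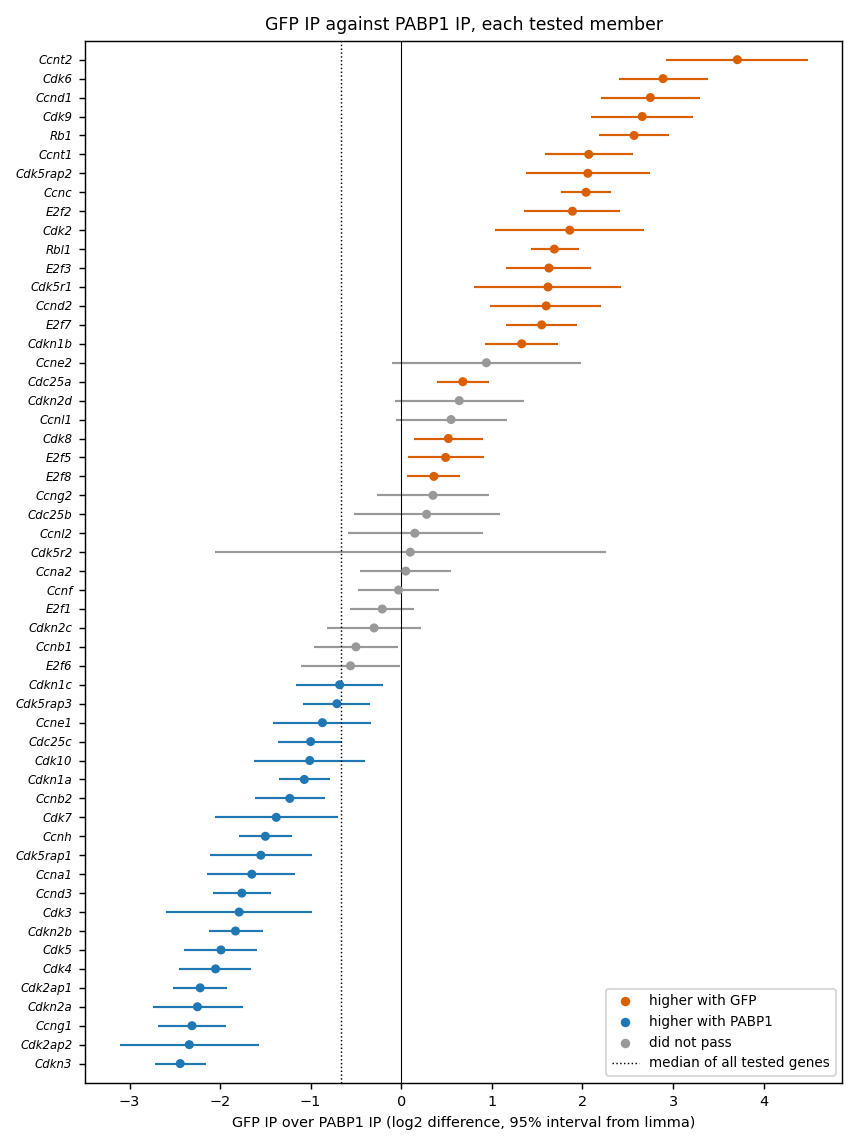
Difference between GFP IP and PABP1 IP for each of the 54 tested members (x axis, log2, with limma's 95% interval), ordered by size; orange and blue mark members past the threshold and the dotted line marks the median of all tested genes, −0.67. Ccnt2, Cdk6 and Ccnd1 lie farthest to the GFP side and Cdkn3, Cdk2ap2 and Ccng1 farthest to the PABP1 side.

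The A, B and F cyclins act from S phase to mitosis. Of 5 tested, 0 were higher and 3 lower with GFP than in the input, beside 43.3% of all tested genes lower, and with median scaling 1 was higher and 0 lower. Ccna1, the cyclin A of germ cells, passed the filter only through the PABP1 IPs, where it is high, so its differences from them are a description. It was 2.14-fold higher with PABP1 than in the input (1.10 ± 0.20) and 3.15-fold lower with GFP than with PABP1 (−1.65 ± 0.20). The difference of −0.55 ± 0.18 between GFP and input (adjusted p = 0.0311) held in 10 of 23 alternatives, and failed within both slides and on leaving out input 1, input 2, or array 1 or 3 of the GFP IP (adjusted p = 0.0602, 0.104, 0.0648 and 0.0974). Ccnb2 read 5.73, 5.55 and 5.25 in the inputs, 6.41 and 6.25 in the PABP1 IPs and 5.09, 5.10 and 5.12 in the GFP IPs, that is 0.82 ± 0.16 above the input with PABP1 (adjusted p = 0.00387) and −1.23 ± 0.16 between the IPs (adjusted p = 0.000409). With quantile normalization neither passed, at 0.22 (adjusted p = 0.202) and −0.30 (adjusted p = 0.0814). Its difference with GFP against the input, −0.41 ± 0.15 (adjusted p = 0.041), held in 7 of 24 alternatives and turned to 0.12 with median scaling. It failed within both slides and without any 1 array other than input 3 (adjusted p from 0.0557 to 0.118).

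Ccnb1, which encodes the main mitotic cyclin, depended on the probe. The brightest probe was −0.86 ± 0.17 with GFP relative to the input (adjusted p = 0.00389; with median scaling −0.33, adjusted p = 0.101), whereas the 2 other probes, well above background on all arrays and annotated to the same transcript record, gave 1.16 and 1.58. Ccna2 and Ccnf passed in no comparison of the reported fit, with Ccna2 levels of 3.06 to 3.62 in the inputs, 3.84 and 3.55 in the PABP1 IPs and 3.59 to 3.96 in the GFP IPs. Scaled on the 75th percentile of detected probes, Ccna2 passed with GFP over input (0.51, adjusted p = 0.0354). In that setting Ccnf passed with PABP1 over input (−0.46, adjusted p = 0.0396). With the slide as a block Ccna2 was higher than the input with GFP (0.48, adjusted p = 0.00328) and with PABP1 (0.36, adjusted p = 0.0157), and with median scaling it was higher with GFP than in the input (0.89, adjusted p = 0.00148). The Cdc25 phosphatases, which remove inhibitory phosphates from CDKs, gave 0 calls of 3 with GFP against the input, beside 64.8% of all tested genes called, and 2 higher with median scaling. Cdc25a was 1.67-fold lower with PABP1 than in the input (−0.74 ± 0.12, adjusted p = 0.0016) and Cdc25c 2.13-fold higher (1.09 ± 0.15, adjusted p = 0.000685). Cdc25b passed in none.

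The cyclins and kinases of transcription gave 5 higher and 3 lower of 10 with GFP, and 3 higher and 6 lower with PABP1, each against the input. Over all tested genes 21.4% were higher and 43.3% lower with GFP, and 34.3% and 25.4% with PABP1. Cyclins T1 and T2 with Cdk9 form P-TEFb, which releases paused RNA polymerase II, and all 3 mRNAs were lower with PABP1 than in the input and higher with GFP than with PABP1. Cdk9 read 4.07, 4.31 and 4.64 in the inputs, 3.21 and 3.48 in the PABP1 IPs and 6.36, 5.80 and 5.84 in the GFP IPs. Without overlap, it was 3.16-fold above the input with GFP (1.66 ± 0.21, adjusted p = 0.000484), 2.00-fold below it with PABP1 (−1 ± 0.24, adjusted p = 0.00918; without PABP1 IP 1, 0.0626; with median scaling, 0.0596) and 6.30-fold higher with GFP than with PABP1 (2.66 ± 0.24, adjusted p = 6.29e-05).

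On the reported probes, Ccnt2 had the largest difference between the IPs of the 54 tested members. It read −1, −1 and −0.26 in the inputs, −2.97 and −2.31 in the PABP1 IPs and 1.12, 0.67 and 1.40 in the GFP IPs, which is 13.1-fold higher with GFP than with PABP1 (3.71 ± 0.33, adjusted p = 6.15e-05). Against the input it was 1.82 ± 0.30 with GFP (adjusted p = 0.00147) and −1.89 ± 0.33 with PABP1 (adjusted p = 0.00216). Another Ccnt2 probe, well above background on 7 arrays, gave 3.49 between the IPs but −2.44 with GFP and −5.94 with PABP1 against the input. The remaining Ccnt2 probe, well above background on 5 arrays, gave only 0.75 between the IPs. Against the input that probe gave 0.06 with GFP and −0.69 with PABP1. The sign against the input with GFP therefore depended on the probe, and so did the size between the IPs. Ccnt1 was lower with PABP1 than in the input (−1.72 ± 0.21, adjusted p = 0.000338) and higher with GFP than with PABP1 (2.07 ± 0.21, adjusted p = 9.62e-05), with 1 of 2 PABP1 IP arrays well above background, so these sizes are uncertain.

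Cyclin C and Cdk8 belong to the kinase module of Mediator. Ccnc varied little within groups, with inputs at −0.17, −0.15 and −0.16, PABP1 IPs at −0.35 and −0.33 and GFP IPs at 1.59, 1.69 and 1.81. It was 3.62-fold above the input with GFP (1.86 ± 0.10, adjusted p = 2.27e-05), while PABP1 differed from the input by −0.18 ± 0.12 and did not pass (adjusted p = 0.217). Another Ccnc probe, not well above background in any input, gave 2.96 for PABP1 over input, and the mean of the gene's probes gave 1.39. Cdk8 was above the input in both IPs, 2.83-fold with GFP (1.5 ± 0.14, adjusted p = 0.000132) and 1.97-fold with PABP1 (0.98 ± 0.16, adjusted p = 0.00158), but a second probe of the same transcript record gave −0.32 and −1.24.

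Cdk7 and cyclin H form the CDK-activating kinase, which is also part of the transcription factor TFIIH. Cdk7 read −0.81, −0.78 and −0.20 in the inputs, 1.49 and 1.92 in the PABP1 IPs and 0.54, −0.12 and 0.55 in the GFP IPs. It was 4.93-fold above the input with PABP1 (2.30 ± 0.29, adjusted p = 0.000429), 0.92 ± 0.26 above it with GFP (adjusted p = 0.0168, held in 18 of 24 alternatives and lost on leaving out input 1, input 2, or array 1 or 3 of the GFP IP, at 0.0574 to 0.0593), and lower with GFP than with PABP1 by −1.38 ± 0.29 (adjusted p = 0.004), which did not pass with median scaling (−0.92, adjusted p = 0.09). A second Cdk7 probe, not well above background in any input, gave 0.32 with PABP1 and, with the opposite sign, −0.11 with GFP. For the mean of the Cdk7 probes the call with GFP was lost (0.41, adjusted p = 0.0687). Ccnh was −1.03 ± 0.11 with GFP (adjusted p = 0.000218) and 0.47 ± 0.12 with PABP1 (adjusted p = 0.0133) against the input. Its other probes on all arrays gave 0.78 and 0.32 with GFP. The Ccnh call with PABP1 was lost within both slides (adjusted p = 0.0652 and 0.118) and without PABP1 IP 1 (0.0949). Cdk10 was lower with GFP than in the input, 3.33-fold (−1.74 ± 0.23, adjusted p = 0.000581), with levels of 4.47, 4.47 and 4.91 in the inputs and 3.27, 2.45 and 2.92 in the GFP IPs, and a second probe gave −1.81. Ccnl1 and Ccnl2, cyclins linked to splicing, were lower with PABP1 than in the input by −1.07 ± 0.26 (adjusted p = 0.00985) and −0.98 ± 0.31 (adjusted p = 0.0306), and Ccnl2 with GFP by −0.82 ± 0.28 (adjusted p = 0.0356, held in 11 of 24 alternatives), where the mean of its probes gave 0.87. The Ccnl1 call was lost without PABP1 IP 1 (adjusted p = 0.062) and with median scaling (adjusted p = 0.0595). For Ccnl2 the PABP1 call was lost without input 1, input 2 or PABP1 IP 2 (0.0824, 0.0856 and 0.189) and the GFP call on leaving out input 1, input 2, or array 1 or 3 of the GFP IP (0.103 to 0.108).

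Cyclin G1, a target of p53, was among the members most favoured by PABP1. Ccng1 read 4.55, 4.35 and 4.13 in the inputs, 6.51 and 6.26 in the PABP1 IPs and 4.07, 4.11 and 4.05 in the GFP IPs. It was 4.12-fold above the input with PABP1 (2.04 ± 0.16, adjusted p = 5.59e-05) and 4.96-fold lower with GFP than with PABP1 (−2.31 ± 0.16, adjusted p = 2.09e-05). A second Ccng1 probe of the same transcript record gave 0.95 with PABP1, 1.57 with GFP and 0.61 between the IPs. Ccng2 was 1.96-fold above the input with GFP (0.97 ± 0.24, adjusted p = 0.00902).

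Among the other kinases and the genes named after one, Cdk2ap1, which encodes a Cdk2-binding protein, had the highest difference of all members with PABP1. It read 2.23, 2.21 and 2.05 in the inputs, 4.91 and 4.74 in the PABP1 IPs and 2.62, 2.52 and 2.68 in the GFP IPs, or 6.33-fold above the input with PABP1 (2.66 ± 0.13, adjusted p = 1.71e-05). With GFP it was 0.45 ± 0.11 above the input (adjusted p = 0.0112), which gave 0.3 and 0.6 within the slides (adjusted p = 0.191 and 0.0501). Its relative Cdk2ap2 was 3.32-fold above the input with PABP1 (1.73 ± 0.33, adjusted p = 0.00298) and 5.06-fold lower with GFP than with PABP1 (−2.34 ± 0.33, adjusted p = 0.000524). Cdk5, a kinase best known from neurons, was 1.06 ± 0.17 above the input with PABP1 (adjusted p = 0.00143) and −0.93 ± 0.15 with GFP (adjusted p = 0.00155), the latter −0.39 with median scaling (adjusted p = 0.0792). Cdk5rap1, a mitochondrial tRNA-modifying enzyme, was 3.62-fold above the input with PABP1 (1.86 ± 0.24, adjusted p = 0.000464).

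Cdk5rap2, a centrosome protein, was the lowest member with PABP1 and among the lowest with GFP. It read 0.24, 0.50 and 0.89 in the inputs, −4.08 and −3.37 in the PABP1 IPs, where 1 of 2 arrays was well above background, and −1.96, −1.62 and −1.40 in the GFP IPs. It was below the input by −4.27 ± 0.29 with PABP1 (adjusted p = 3.56e-05), a size that rests partly on an array near background, and 4.61-fold below it with GFP (−2.21 ± 0.26, adjusted p = 0.000313). Cdk5rap3 was 3.12-fold below the input with GFP (−1.64 ± 0.14, adjusted p = 8.83e-05); a second probe gave −0.08 there and 1.14 with PABP1, where the reported probe gave −0.93 ± 0.16 (adjusted p = 0.00188; within slide 2, 0.0563). Cdk5r1 was below the input with PABP1 (−1.58 ± 0.35, adjusted p = 0.00618), but only 1 of 2 PABP1 IP arrays was well above background (levels −4.1 and −3.07), so the size is uncertain. Cdk5r2 varied widely within groups, at 1.38, 1.01 and −0.78 in the inputs, −1.35 and −3.74 in the PABP1 IPs and −3, −1.45 and −2.89 in the GFP IPs. Its differences from the input, −2.99 ± 0.82 with GFP (adjusted p = 0.0151) and −3.08 ± 0.92 with PABP1 (adjusted p = 0.0222), passed with large errors. The first was lost without input 1 or GFP IP 1 (adjusted p = 0.0537 and 0.0531), the second without input 1, input 2 or PABP1 IP 2 (adjusted p = 0.0638, 0.0623 and 0.147).

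**Figure D4:**
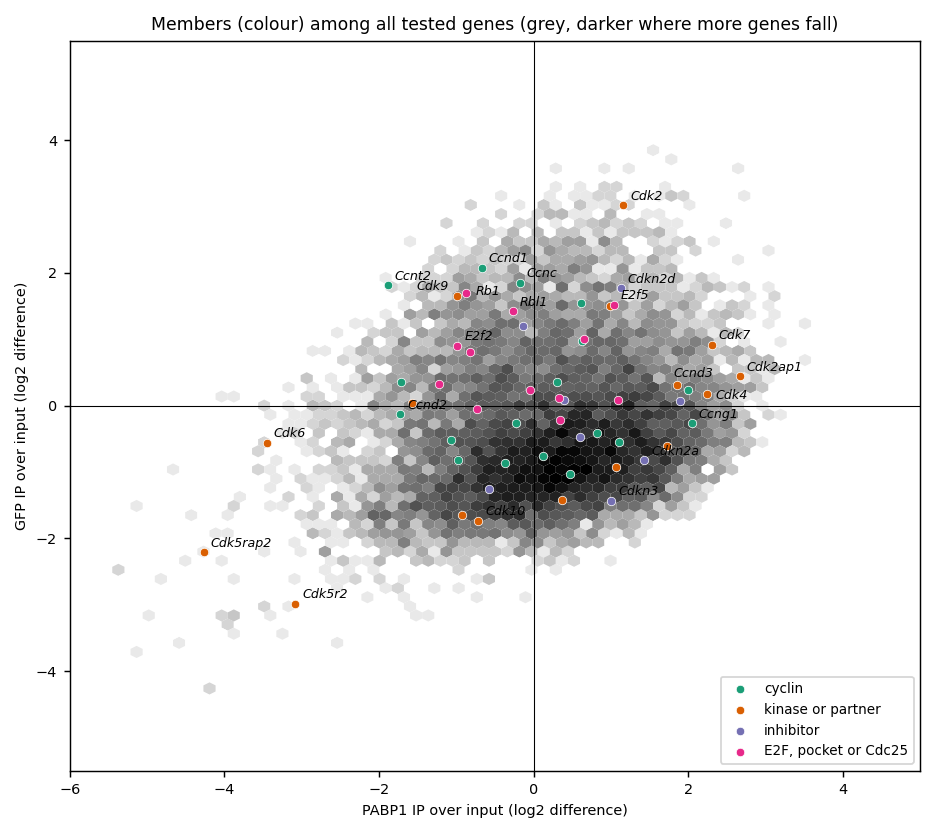
GFP IP over input (y axis) against PABP1 IP over input (x axis) as log2 differences, for the 54 tested members (coloured by family) over the tested genes that lie within the axes (grey, darker where more fall); both axes use the same inputs. Ccnd1, Ccnt2, Cdk9 and Rb1 lie above 0 with GFP and below 0 with PABP1, whereas Cdkn3 and Cdkn2a lie the other way and Cdk2, Cdkn2d and E2f5 above 0 on both axes.

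Probes of 1 gene often disagreed. Among members called in GFP over input, 21 other probes passed the same filter on dim signal, and 11 of them (52.4%) had the sign of the reported probe, against 76.8% over all called genes. For PABP1 over input the shares were 66.7% and 78.7%, and between the IPs 71.4% and 79.5%. Of 15 members with 2 or more probes well above background on all 8 arrays, Ccnb1, Ccnh, Cdk6 and Cdk8 had called values with GFP over input and another probe of the opposite sign. Cdk10, Cdkn3, Ccne1, Ccnl2, Cdk5rap3 and E2f3 were also called there and had a second probe of the same sign, at −0.02 for Ccnl2, −0.08 for Cdk5rap3 and 0.23 for E2f3. Where in their transcripts these probes lie was not analysed here.

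**Figure D5:**
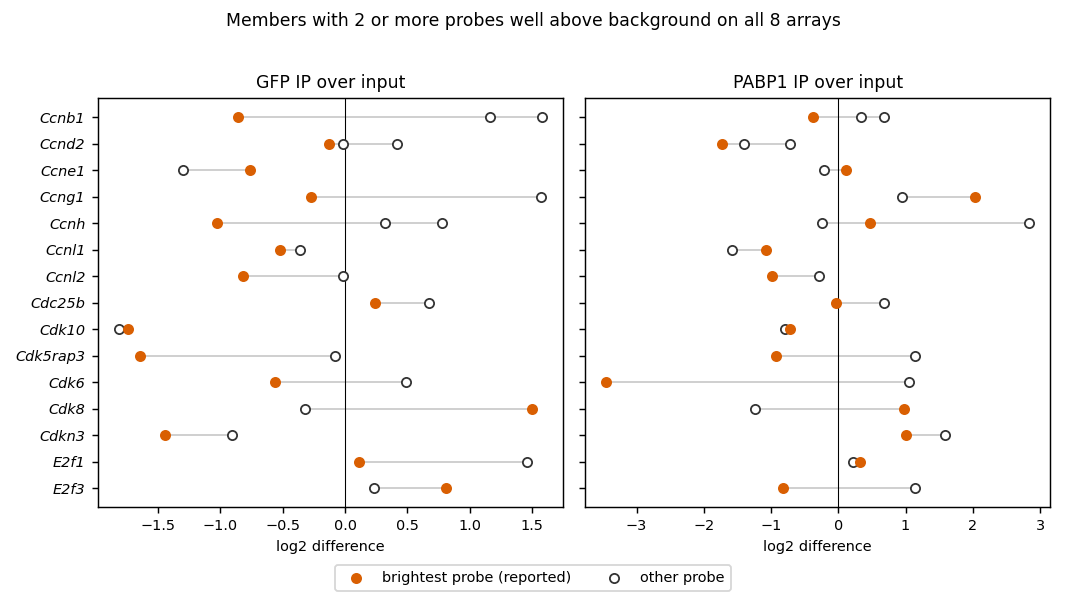
Log2 difference from the input for each probe of the 15 members with 2 or more probes well above background on all 8 arrays, with GFP (left) and PABP1 (right); filled points are the brightest probe, whose values are reported, and open points the other probes. For Ccnb1, Ccnd2, Ccng1, Ccnh, Cdk6 and Cdk8 the probes lie on both sides of 0 with GFP, and for Cdk6 the probes are −3.45 and 1.05 with PABP1.

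The wider pathway was followed through a list of 52 names that are not members, 44 of them on the array and 42 tested: the other subunits, regulators and degradation factors of the same network. With GFP, 18 were higher and 10 lower than in the input (66.7% called beside 64.8% of all genes; median 0.31). With PABP1, 12 were higher and 10 lower (52.4% called beside 59.6%; median 0.05), and between the IPs 16 were higher and 10 lower with GFP (61.9% beside 71.4%; median 0.27). Tfdp1, which encodes the DP1 partner that E2F factors need to bind DNA, was the highest with GFP. It read 1.34, 1.37 and 1.18 in the inputs, 2.86 on both PABP1 IPs and 4.94, 4.93 and 4.93 in the GFP IPs, or 12.4-fold above the input with GFP (3.64 ± 0.10, adjusted p = 1.32e-05) and 2.95-fold with PABP1 (1.56 ± 0.12, adjusted p = 4.77e-05). A second Tfdp1 probe gave 3.40 with GFP.

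Cks2, for a small CDK subunit, followed at 6.43-fold with GFP (2.68 ± 0.25, adjusted p = 0.000113), and Mycn, a transcription factor that drives growth, at 6.34-fold (2.66 ± 0.18, adjusted p = 3.81e-05); second probes gave 2.66 and 2.5. The lowest with GFP were Larp7, a subunit of the complex that sequesters P-TEFb (−1.89 ± 0.12, adjusted p = 3.04e-05), Ccnk, for cyclin K (−1.47 ± 0.20, adjusted p = 0.000611), and Foxm1, a factor for mitotic genes (−1.30 ± 0.34, adjusted p = 0.0121). With PABP1 the highest were Cdc2a, that is Cdk1, the main mitotic kinase, at 4.13-fold (2.05 ± 0.15, adjusted p = 4.48e-05), Cks1b at 4.03-fold (2.01 ± 0.21, adjusted p = 0.000175) and the ubiquitin ligase subunit Rbx1 (1.60 ± 0.15, adjusted p = 0.000132). The lowest with PABP1 were the Myc antagonist Mxd1 (−2.25 ± 0.32, adjusted p = 0.000794), Fbxw7, the ligase subunit that targets cyclin E (−2.09 ± 0.45, adjusted p = 0.00583), and Larp7 (−2.06 ± 0.13, adjusted p = 2.96e-05). A second Larp7 probe, well above background on all arrays, gave only −0.55 with GFP and −0.13 with PABP1. Another Mxd1 probe, well above background on 2 arrays, gave 0.5 with PABP1. For the mean of the Mxd1 probes the call with PABP1 was lost (−0.87, adjusted p = 0.0882).

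Between the IPs, Lin9, of the complex that binds E2F targets (2.70 ± 0.44, adjusted p = 0.00119), and Mdm4, an inhibitor of p53 (2.68 ± 0.25, adjusted p = 7.93e-05), were highest with GFP on the reported probes, though another Mdm4 probe on all arrays gave −0.08. Cdc14a, for a phosphatase, was well above background in the GFP IPs alone, so that it passed the filter through the group where it is high and had to differ. It is given as a description, at least 3.24-fold higher there than in the PABP1 IPs, and its other probes were well above background on 0 arrays. Mnat1, the third subunit of the CDK-activating kinase (−1.27 ± 0.21, adjusted p = 0.00124), Fzr1, an activator of the anaphase-promoting complex (−1.03 ± 0.21, adjusted p = 0.00327), and Mybl2 (−0.84 ± 0.21, adjusted p = 0.00834; without PABP1 IP 1, 0.0673) were lowest with GFP. With median scaling Mnat1 (adjusted p = 0.0696) and Mybl2 (adjusted p = 0.107) did not pass.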

How the data were processed

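Input RNA and RNA from GFP and PABP1 IPs of Dazl-GFP mouse ES cells were labelled with Cy3 and hybridised to 8 one-colour Agilent arrays (design 014868). The deposited intensity of each spot was made by the authors with Feature Extraction 9.1.3.1, protocol GE1-v5_95_Feb07, and is background-subtracted but not scaled between arrays, per the file headers. Flags (other values than brightness) for outlier, saturated and well above background spots were deposited in the same files. A deposited table of group means was not used here. From log2 of that intensity, the 75th percentile of the array's 43379 non-control spots was taken off, and repeated spots were averaged to 41174 probes. Outlier spots removed 32 probes, 0 of them members'. Members' names were checked against RefSeq GRCm38.p6: 49 matched by accession and 9 by symbol.

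Groups were compared by limma (version 3.58.1, R 4.3.3), with 1 linear model for the 8 arrays, moderated two-sided tests and Benjamini-Hochberg adjustment. The model had 5 residual and 2.1 prior degrees of freedom and was tested on simulated data. The R package data.table (version 1.17.8), matplotlib 3.10.9, pandas 2.3.3 and Python 3.11.15 were also used. Named with values were, per role, up to 6 members past the threshold with GFP against input or PABP1, the 5 highest and 5 lowest called members of each comparison, and the 3 highest and lowest called pathway genes. The members, lists and rules were chosen with earlier results of these data known. Alternatives covered background correction, scaling, filter, probe choice, array weights, slide, replicate block and leaving out arrays. Arrays of 1 slide deviated together from their group means (r 0.441 to 0.767 across genes).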

Additional observations from a re-analysis of the deposited data

How the results depend on the processing

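Members were counted under 24 alternatives, of which normexp with quantile normalization was chosen after seeing the data. Under normexp with percentile scaling, the members higher and lower were 2 and 3 (GFP over input), 10 and 2 (PABP1 over input) and 8 and 13 (GFP over PABP1), and medians between the IPs and for PABP1 over input were −0.04 and −0.07. In that setting the SD of GFP IP array 3 about its group mean rose from 0.27 to 0.77. The offset of 50 added there is close to the arrays' 75th percentile signals of 63.6 to 182. With quantile normalization after normexp that SD was 0.11, and 33, 38 and 40 members were called; medians were 0.16 between the IPs and 0.06 for PABP1. Of the 35, 40 and 41 calls, 5, 12 and 18 held in every alternative, and 16, 22 and 28, these included, in every one but the normexp settings. With median scaling 7 members were lower with GFP than in the input. The median for GFP over input was 0.62 with median scaling, 0.27 after quantile normalization, 0.25 for the percentile of detected probes and 0.18 with centring. Between the IPs it was 0.53, 0.39, 0.48 and 0.19 in that order, 0.13 without the filter, −0.03 for probes well above background on all arrays, 0.14 for the mean of probes, −0.04 with array weights, 0.15 with the slide as a block, 0.01 and 0.15 within the slides, and −0.15 to 0.15 leaving out 1 array. For PABP1 over input it was 0.08 with quantile normalization, 0.07 with detected probes and 0.03 without the filter, and 0.16 to 0.39 leaving out 1 array. Leaving out 1 array gave 17 to 18 higher and 12 to 17 lower (GFP over input), 19 to 22 and 13 to 19 (PABP1 over input), and 17 to 20 and 19 to 22 (GFP over PABP1). With the replicate number as a block, the counts were 18 and 17, 22 and 16, and 20 and 21, and the median between the IPs was 0.17. Same-numbered arrays deviated together where they shared a slide and not where they did not (r −0.737 to 0.622 across genes). These values therefore cannot tell pairing from the slide, and the numbers were not taken as pairs.

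Signs turned for few of the named values. For the mean of a gene's probes, GFP over input became 0.63 for Ccnb1, 0.32 for Ccnh, 0.87 for Ccnl2, −0.19 for Ccnt2 and 0.10 for Cdk6, PABP1 over input became 1.39 for Ccnc, 0.11 for Cdk5rap3 and −0.20 for Cdk8, and E2f8 between the IPs became −0.02. Median scaling gave 0.12 for Ccnb2 and 0.06 for Cdkn1a with GFP, and normexp gave −0.09 for Ccna1 and −0.13 for Cdk2 with PABP1. Between the IPs, quantile normalization gave 0.15 for Cdk5rap3 with and without normexp, and 0.13 and 0.07 for Mybl2. The causes were not tested, beyond the values given. Probe disagreement, dim signal (Cdk2, Ccne2, Cdk3, Ccna1) and 2 PABP1 IP arrays limit what these values show.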
